A study of Mus musculus with 6 samples.

Results

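The Schlafen genes of the mouse were followed in the hippocampus after chronic cerebral hypoperfusion. The 7 members Slfn1, Slfn2, Slfn3, Slfn4, Slfn5, Slfn8 and Slfn9 were chosen by name and matched through their Ensembl identifiers, out of 54752 genes in the count tables. The whole hippocampus of the right side was taken from 3 mice of the sham group and 3 of the BCAS group, and 1 RNA-seq library was made per mouse. All were male wild-type mice labelled as strain C57BL/6 (C57BL/6 J in the study's methods) with a labelled age of 14 weeks, and tissue was taken 3 weeks after surgery. BCAS (bilateral carotid artery stenosis) mice had both common carotid arteries wrapped with a microcoil, which narrows the vessel and lowers blood flow to the brain. Sham mice had the same operation without the coils. The hippocampus was taken whole, so the libraries mix neurons, glia, vessel cells and any blood-borne cells.

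Schlafen proteins are found in mammals and are named after the German word for sleep, because the first of them was found to hold back the growth of developing T cells. They share a core domain that binds RNA, and several of them cut or protect transfer RNA and so change translation. The short members Slfn1 and Slfn2 consist of little more than this core, the intermediate members Slfn3 and Slfn4 carry an added linker domain, and the long members Slfn5, Slfn8 and Slfn9 end in a helicase-like domain. Many family members are induced by type I interferon in immune cells, macrophages among them.

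The members lie in a single cluster on chromosome 11, at chr11:82951349-83215154 of build mm10, a stretch of 263806 bases. From its start the order was Slfn5, Slfn9, Slfn8, Slfn2, Slfn1, Slfn4 and Slfn3. Slfn9 and Slfn8 are on the minus strand and the others on the plus strand. The longest coding sequences in the annotation ran from 1014 bases in Slfn1 and 1137 in Slfn2, over 1554 in Slfn3 and 1809 in Slfn4, to 2655 in Slfn5 and 2733 in both Slfn8 and Slfn9. Slfn3 and Slfn4, with 1113 bases between them, had 95.3% identical bases over 1524 aligned coding bases, and Slfn8 and Slfn9 had 92.7% over 2733. The other pairs were 57.7% to 76.2% identical.

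Promoter stretches are printed to show the letters that group these genes, with sequences and start sites from RefSeq (GRCm38.p6, the build also called mm10), 5′ to 3′ on the strand of the gene. All 7 members had a window of 250 bases before to 50 after the start. The searched core of the interferon-stimulated response element, GAAANNGAAA on either strand, was found in Slfn5, Slfn8 and Slfn9 and is in capitals in these 120-base stretches at chr11:82951892-82952011 (plus strand), chr11:83020794-83020913 (minus strand) and chr11:82991811-82991930 (minus strand).
Slfn5: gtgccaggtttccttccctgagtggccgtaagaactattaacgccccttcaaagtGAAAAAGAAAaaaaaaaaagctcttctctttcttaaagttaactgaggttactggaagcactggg
Slfn8: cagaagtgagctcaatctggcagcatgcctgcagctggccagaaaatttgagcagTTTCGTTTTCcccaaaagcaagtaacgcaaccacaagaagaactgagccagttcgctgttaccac
Slfn9: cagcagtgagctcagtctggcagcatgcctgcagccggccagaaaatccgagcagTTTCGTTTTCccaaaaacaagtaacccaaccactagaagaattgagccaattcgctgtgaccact

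The core began 155 bases before the start in Slfn5, 48 in Slfn8 and 45 in Slfn9, and 136 before a second start that the table gives for Slfn8. For Slfn1 and Slfn5 the RefSeq start differs from the gene start in the count tables. It was written the same way in Slfn8 and Slfn9, whose 300-base windows were 84.9% identical over 292 aligned bases. Among all 32851 promoter windows of the table, 3.44% held this core. The letters GAGGAA, the form searched for the myeloid factor PU.1, were found on either strand in Slfn9 alone among the members, apart from its interferon core. They were in 28.3% of all windows. Shorter or other forms of this element were not searched. The interferon-gamma element TTCNNNGAA was in none of the members and in 8.30% of all windows. A match is a description of letters and no evidence of binding.

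The members without the interferon core shared other letters, which were found after the sequences had been read. The run ACTTCCTGGAG stood in Slfn1, Slfn2 and Slfn4 and in 24 of all windows (0.0731%). In Slfn3 the first 9 letters of it were present, a string held by 0.843% of all windows. On the reverse strand both hold the letters GGAA, but not the searched GAGGAA. These runs are in capitals in the stretches at chr11:83116691-83116810, chr11:83065002-83065121, chr11:83175058-83175177 and chr11:83191232-83191351, all on the plus strand.
Slfn1: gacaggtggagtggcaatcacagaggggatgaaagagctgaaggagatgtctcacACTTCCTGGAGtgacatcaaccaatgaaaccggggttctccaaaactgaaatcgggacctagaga
Slfn2: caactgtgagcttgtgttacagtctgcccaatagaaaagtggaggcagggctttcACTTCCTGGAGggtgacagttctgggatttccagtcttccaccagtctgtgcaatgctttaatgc
Slfn4: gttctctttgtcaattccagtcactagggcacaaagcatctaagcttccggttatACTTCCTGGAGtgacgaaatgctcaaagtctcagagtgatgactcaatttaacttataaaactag
Slfn3: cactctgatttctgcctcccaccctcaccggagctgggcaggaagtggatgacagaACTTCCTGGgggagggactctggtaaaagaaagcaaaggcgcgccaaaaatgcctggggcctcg

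The run began 74, 55 and 73 bases before the start in Slfn1, Slfn2 and Slfn4, and the shorter string began 42 bases before it in Slfn3. In Slfn2 it overlapped a further match, GGAANNGAAA on the reverse strand, which was also looked for after the fact and was in 2.72% of all windows.

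BCAS mice had higher expression than sham mice of 6 of the 7 Schlafen genes, and the exception was Slfn3. The 6 up-regulated members were Slfn1, Slfn2, Slfn4, Slfn5, Slfn8 and Slfn9, and none was down-regulated. Up-regulated differentially expressed genes (DEGs; adjusted P under 0.05 and a log2 fold change above 1 by edgeR) made up 8.47% of the 18617 genes tested, and down-regulated DEGs 0.999%. In the same 6 members every BCAS mouse was above every sham mouse, as in 25.3% of all tested genes. All 7 members passed the filter on low counts. Slfn2, Slfn5, Slfn8 and Slfn9 were over its limit of 0.302 CPM in all 6 libraries. CPM is the count scaled to library size, with TMM factors, while the filter itself used library totals without these factors. Slfn1 and Slfn4 were under the limit in every sham mouse and entered the test through the BCAS mice, so their differing was partly fixed by the filter. Without the filter the same 6 members were called.

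**Figure D1:**
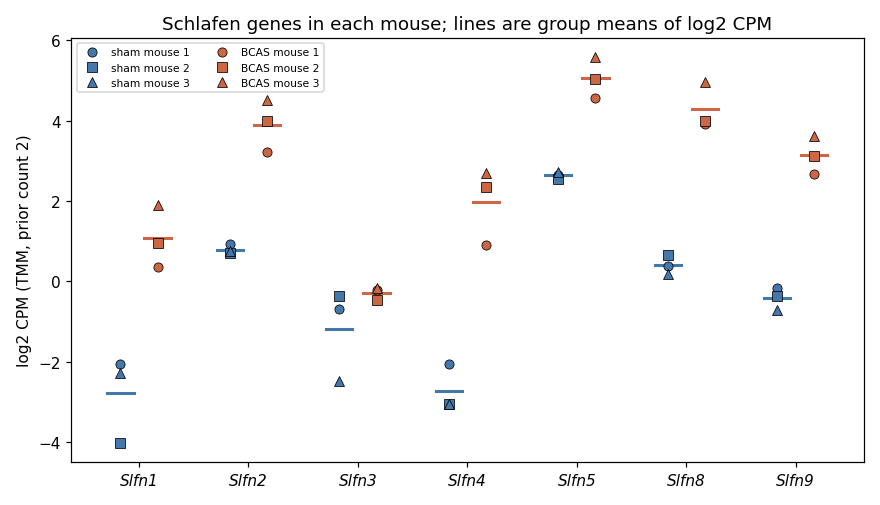
Level of each Schlafen gene in each mouse as log2 CPM, normalized by TMM with a prior count of 2; symbols mark the mice, and the lines are the group means. The groups are apart in 6 genes and overlap in Slfn3.

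The short member Slfn2 keeps T cells in quiescence and protects transfer RNA from cleavage. It stood at 1.83, 1.56 and 1.63 CPM in sham mice 1 to 3, and at 9.30, 15.7 and 22.6 CPM in BCAS mice 1 to 3. The sham mice lay close together and the BCAS mice were spread, with the lowest of them still well above every sham mouse. The means were 1.67 ± 0.141 and 15.9 ± 6.65 CPM (SD, n = 3 each), and the log2 fold change was 3.24 (SE 0.31, edgeR adjusted P = 1.34e-04).

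Slfn1 is the member for which growth arrest of thymocytes was first described. The sham mice gave 6, 0 and 5 counts and the BCAS mice 40, 57 and 115. The sham level of 0.108 ± 0.0945 CPM (SD, n = 3) was about the limit of detection, since 3 counts are worth 0.0875 to 0.0995 CPM in these libraries. The BCAS level was 2.27 ± 1.27 CPM (SD, n = 3), the log2 fold change was 4.34 (SE 0.72, edgeR adjusted P = 0.00253), and it had the highest SE among the members.

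The intermediate members are neighbors with closely similar coding sequences, and their values went apart. Slfn4, known from activated macrophages and other myeloid cells, was counted 6, 2 and 2 times in the sham mice and 59, 151 and 199 times under BCAS. The BCAS mice were all far above the sham mice, and BCAS mouse 1 was the lowest of them. The level was 0.0984 ± 0.0681 CPM in sham and 4.40 ± 2.34 CPM in BCAS (SD, n = 3 each). The log2 fold change of 5.43 (SE 0.62, 95% confidence interval 4.01 to 6.84, edgeR adjusted P = 3.42e-04) had the highest point estimate of the family. It was 6.12 without sham mouse 1, which held 6 of the 10 sham reads.

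Slfn3, studied mostly for the differentiation of gut epithelium, was counted 19, 24 and 4 times in the sham mice and 26, 20 and 26 times under BCAS. Sham mouse 3 was low, and the other sham mice overlapped with the BCAS mice. In CPM these were 0.561, 0.718 and 0.117 against 0.800, 0.663 and 0.834. The log2 fold change was 0.72 (SE 0.56, edgeR adjusted P = 0.366), with a 95% confidence interval of -0.54 to 1.98 that allows no change as well as a rise of some size. This interval did not reach that of Slfn4, which entered the test through the BCAS mice. The pair was not tested against each other.

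Per length, in RPKM (CPM per kilobase of exon), the ratio of Slfn4 to Slfn3 within each library was 0.272, 0.0717 and 0.430 in the sham mice and 1.95, 6.50 and 6.59 in the BCAS mice. In sham mice 2 and 3 the Slfn4 counts, 2 in each, were under the 3 counts taken as the limit of detection, so their ratios have no reliable size, and in sham mouse 3 the order rests on 4 counts of Slfn3. In the BCAS mice Slfn4 was the more abundant of the pair in every mouse. The pair was chosen after the values were known, so the ratio is described without a test. None of the 100-base pieces of their annotated transcripts was common to both, but 0.271% of the Slfn4 pieces and 2.92% of the Slfn3 pieces also occurred in transcripts of other genes. Reads that align to several places were not counted.

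The summed level of 3 choroid plexus markers differed greatly between mice, from 39.0 to 3814 CPM in sham and from 25.3 to 5531 CPM in BCAS. In mice 1 to 3 it was 890, 3814 and 39.0 CPM in sham and 5531, 25.3 and 2974 CPM in BCAS. The sham mice had the same order in this sum and in Slfn3, whereas the BCAS mice were nearly even in Slfn3. Its part in the Slfn3 values was not tested.

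Among the long members, Slfn5 is an interferon-induced nuclear protein that acts in gene regulation. It was the member with the most reads, at 6.26, 5.84 and 6.56 CPM in the sham mice and 23.5, 32.7 and 47.8 CPM in the BCAS mice. Relative to its mean, no other member was so even in the sham mice. The means were 6.22 ± 0.363 and 34.7 ± 12.3 CPM (SD, n = 3 each), and the log2 fold change of 2.48 (SE 0.24, edgeR adjusted P = 1.28e-04) was the lowest point estimate among the up-regulated members. Of its 6326 exon bases, 559 overlap the antisense gene Slfn5os, and because strand was ignored, reads there could not be told apart. Slfn5os itself was given at most 2 reads in any library.

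Slfn8, which has been linked to T cell-driven inflammation of the central nervous system, was at 1.24, 1.53 and 1.08 CPM in the sham mice. In the BCAS mice it was at 15.1, 15.9 and 31.4 CPM. BCAS mice 1 and 2 were nearly equal, and BCAS mouse 3 was far above both. The means were 1.28 ± 0.227 and 20.8 ± 9.17 CPM (SD, n = 3 each), and the log2 fold change was 4.02 (SE 0.32, edgeR adjusted P = 5.39e-05).

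Slfn9, the close copy of Slfn8, was at 0.826, 0.718 and 0.554 CPM in the sham mice and at 6.31, 8.62 and 12.2 CPM in the BCAS mice. The groups were wide apart. The means were 0.700 ± 0.137 and 9.06 ± 2.99 CPM (SD, n = 3 each), and the log2 fold change was 3.69 (SE 0.30, edgeR adjusted P = 5.62e-05). Of the 100-base pieces of Slfn8 transcripts, 3.39% were also found in Slfn9 or in the pseudogene Slfn10-ps, and 3.71% of the Slfn9 pieces in Slfn8 or Slfn10-ps, so some reads of both genes may be missing from the counts. The ratio of Slfn8 to Slfn9 in RPKM was 2.19 to 3.10 in sham and 2.70 to 3.73 in BCAS, and the groups overlapped.

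Per length, the order of the mean levels was the same in both groups except for the place of Slfn3. In the sham mice Slfn2 (1.01 ± 0.0848 RPKM) and Slfn5 (0.983 ± 0.0574 RPKM) were highest and did not differ beyond their spread. Slfn8 followed at 0.313 ± 0.0554 RPKM, without overlap with its neighbours in the order. Below it came Slfn3 (0.136 ± 0.0915), Slfn9 (0.117 ± 0.0230), Slfn1 (0.0577 ± 0.0507) and Slfn4 (0.0248 ± 0.0172), and each of these 4 overlapped with the next of them. In the BCAS mice Slfn2 had the highest mean, 9.54 ± 4.0 RPKM, before Slfn5 (5.48 ± 1.94) and Slfn8 (5.08 ± 2.24). Their ranges over the mice overlapped, although Slfn2 was 1.5 to 1.83 times Slfn5 within each mouse. Slfn3 was last, with 0.224 ± 0.0265 (SD, n = 3 for each level). Slfn9, Slfn1 and Slfn4 lay between these at 1.52 ± 0.502, 1.22 ± 0.682 and 1.11 ± 0.591 RPKM, with levels that overlapped.

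Summed over the members, the family stood at 11.1, 10.4 and 10.1 CPM in the sham mice and at 58.0, 80.5 and 125 CPM in the BCAS mice, and the means differed 8.33-fold. The make-up of this sum also differed. Slfn5 gave 37.4% ± 3.55 of the summed RPKM in sham and 23.0% ± 1.18 in BCAS (SD, n = 3 each), whereas Slfn8 gave 11.9% ± 2.23 and 21.1% ± 3.37. The groups did not overlap in either share. Slfn2 had a similar share in both groups, with 38.1% ± 1.58 and 39.2% ± 2.91, and the groups overlapped. Slfn4 went from 0.917% ± 0.571 to 4.42% ± 1.34, without overlap. These shares sum to the whole, so they cannot move independently, and they were not tested.

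**Figure D2:**
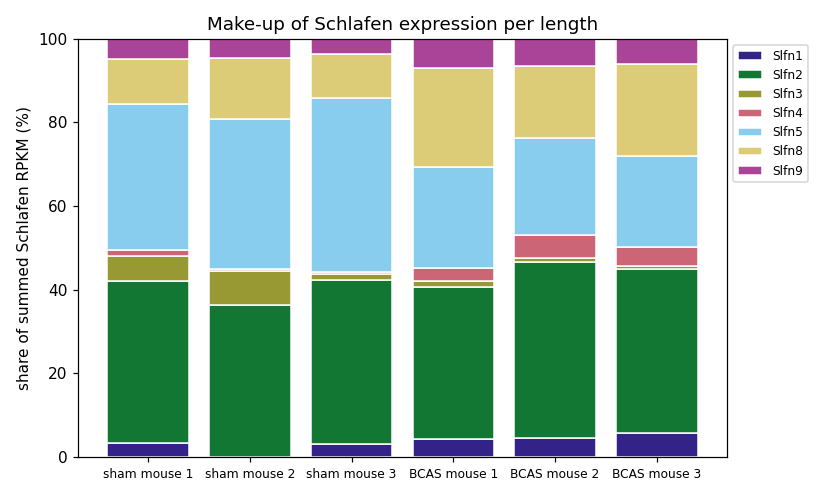
Share of each Schlafen gene in the summed RPKM of the family, in percent, with 1 bar per mouse. Slfn5 takes 34.9% to 41.4% in the sham mice and 21.8% to 24.1% in the BCAS mice, and Slfn8 takes 10.5% to 14.5% and 17.4% to 23.9%.

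BCAS mouse 3 had the highest CPM of each of the 6 up-regulated members. Its level was 1.94 times that of BCAS mouse 1 in Slfn9, 2.43 times in Slfn2 and 3.51 times in Slfn4. In Slfn3 both mice had 26 counts. The same mouse was highest for 83.2% of all up-regulated DEGs, and it had the highest summed microglia markers and the lowest summed neuron markers. Without it the 6 members were still called.

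Along the chromosome the up-regulated members ran from Slfn5 to Slfn4. The 8 tested genes within 500000 bases before Slfn5 had log2 fold changes of -0.40 to 0.80, with a median of 0.12, and were not DEGs. Inside the cluster lie 15 further annotated genes with too few reads to be tested, the pseudogene Slfn10-ps among them, with 2, 3 and 2 counts under sham surgery and 4, 6 and 19 under BCAS. Beyond Slfn3, 7 of 17 tested genes were up-regulated, with a median of 0.62, beside 8.47% of all tested genes. Of the 7, Ccl3, Ccl4, Wfdc17 and AI662270 were under the filter limit in every sham mouse, so this count too was partly fixed by the filter. The 7 were the chemokine genes Ccl5, Ccl9, Ccl6, Ccl3 and Ccl4, which code for proteins that attract leukocytes, and Wfdc17 and AI662270, with log2 fold changes of 2.45 (AI662270) to 8.15 (Ccl3). The median over all tested genes was 0.02.

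**Figure D3:**
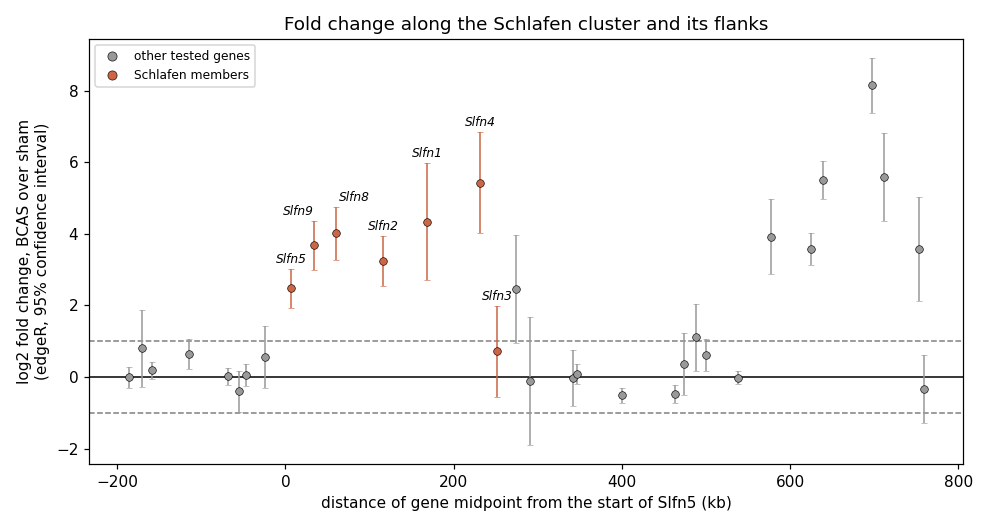
Log2 fold change of the tested genes by distance of the gene's midpoint from the start of Slfn5, in kilobases, with 95% confidence intervals from edgeR. Schlafen members are orange, other genes are grey, and dashed lines mark log2 fold changes of 1 and -1. Slfn3 lies at 0.72 beside Slfn4 at 5.43.

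Other Schlafen genes of the annotation had too few reads to be tested. Slfn14, a ribonuclease gene known from platelets and red cells, had 2, 2 and 0 counts under sham surgery and 0, 0 and 2 under BCAS. Slfnl1, a Schlafen-like gene on chromosome 4, had 4, 1 and 2 against 0, 0 and 2. Differences in these genes were not detectable at this depth.

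The members were set beside markers of the cells that could carry them. Up-regulated DEGs made up 8.47% of all tested genes, as given above. All 8 microglia markers were up-regulated, with a sum of 328 to 343 CPM in sham and 1865 to 2997 CPM in BCAS. Of 8 T cell markers 7 were up-regulated (2.15 to 2.89 against 10.03 to 12.2 CPM), and of 6 monocyte markers 4 were (74.9 to 104 against 140 to 231 CPM, most of it from Fn1 and Vcan, which other cells express too). All 7 of the called T cell markers, and Ly6c2 and Plac8 among the 4 monocyte markers, were under the filter limit of 0.302 CPM in every sham mouse and entered the test through the BCAS mice, so these counts were partly fixed by the filter. The T cell marker over the limit in sham, Lck, was not called (edgeR adjusted P = 0.178). Of 8 neutrophil markers only S100a9 had reads enough for a test, and its edgeR adjusted P was 0.202. Ly6g had no read in any library, and the sum was 0.778 to 2.74 against 0.985 to 3.12 CPM. In B cells 1 of 3 tested markers was up-regulated, with a sum of 0.875 to 1.44 against 1.99 to 3.24 CPM. The hippocampal neuron markers summed to 7347 to 7722 CPM in sham and 3614 to 5302 CPM in BCAS. Of these 7 markers 1 was down-regulated, beside 0.999% of all tested genes. Without the fold change threshold 5 of the 7 were lower, as were 2463 of the 18617 genes tested. Of 4 astrocyte markers 2 were up-regulated. The median log2 fold changes of the markers of endothelium, oligodendrocytes, and platelets and red cells were 0.47, 0.13 and 0.51. Without the fold change threshold 4 of 6 endothelium markers and all 4 astrocyte markers were higher, as were 3356 of the 18617 genes tested. None of the tested markers of oligodendrocytes, or of platelets and red cells, was called without it. In whole tissue, fewer cells of a type and less RNA per cell cannot be told apart, nor can more cells and more RNA per cell, and the part of each cell type in the Schlafen values was not tested.

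Relative to the summed microglia markers, the members showed different patterns. Per 1000 CPM of these markers, Slfn4 was at 0.517, 0.183 and 0.176 CPM in the sham mice and at 0.974, 2.51 and 2.13 CPM in the BCAS mice. Slfn8 was at 3.62, 4.65 and 3.25 CPM in sham and at 8.07, 8.0 and 10.5 CPM in BCAS. In Slfn1, Slfn4, Slfn8 and Slfn9 every BCAS mouse was above every sham mouse on this scale, and Slfn1 and Slfn4 had entered the test through the BCAS mice. How many of all tested genes were apart on this scale, in either direction, was not determined. The ratio of the group means was 2.30 in Slfn8 and 1.88 in Slfn9. In Slfn1 and Slfn4, with 11 and 10 sham reads in all, it has no reliable size: it was 2.97 in Slfn1 and 1.98 without sham mouse 2, and 6.41 in Slfn4 and 10.4 without sham mouse 1. Slfn2 overlapped, at 4.75 to 5.34 CPM in sham and 4.98 to 7.89 CPM in BCAS. Slfn5 was the only member with every BCAS mouse below every sham mouse, at 18.3, 17.8 and 19.8 CPM against 12.6, 16.4 and 15.9 CPM. The summed markers were higher in BCAS, so any gene that rose less than they did is lower on this scale. Slfn3 was at 1.64, 2.19 and 0.352 CPM in sham and at 0.429, 0.333 and 0.278 CPM in BCAS, and the groups overlapped through sham mouse 3 with its 4 reads. The scale depends on which markers are summed, since these rose by log2 fold changes of 1.54 (P2ry12) to 3.95 (C1qa), and no test was made.

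**Figure D4:**
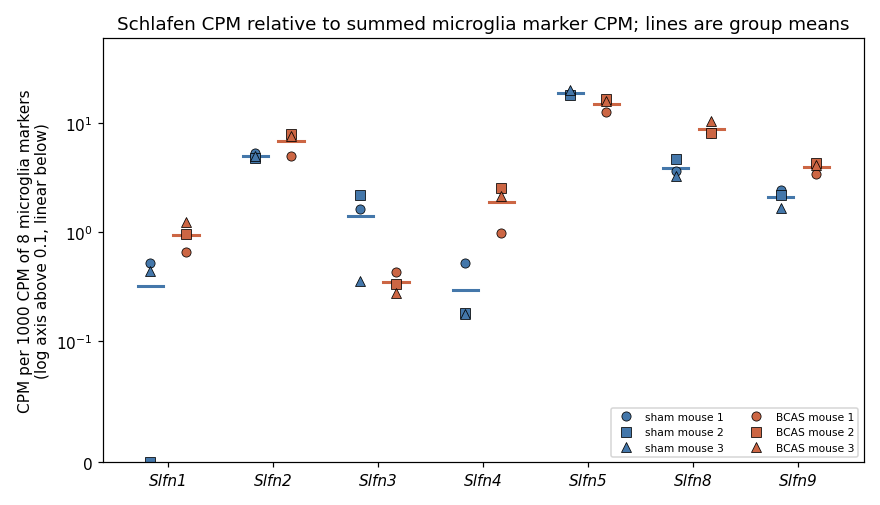
Schlafen CPM per 1000 CPM of the 8 summed microglia markers in each mouse; the axis is logarithmic above 0.1 and linear below, symbols mark the mice, and lines are group means. Slfn1, Slfn4, Slfn8 and Slfn9 are higher in all BCAS mice, Slfn5 is lower, and Slfn2 and Slfn3 overlap. The share of all tested genes that are apart on this scale was not determined.

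For each member the tested genes with the most similar profile were found by the root mean square difference of centred log2 CPM over the 6 libraries. The nearest gene was Rab7b, a GTPase of late endosomes, for Slfn2 (0.11) and Plac8, expressed in leukocytes, for Slfn1 (0.27). For Slfn4 it was Gpr65, an acid-sensing receptor (0.24), and for Slfn5 it was Bin2, a membrane-bending protein of leukocytes (0.08). For Slfn8 it was Csf2rb, the shared beta chain of several cytokine receptors (0.16), and for Slfn9 Ptpn6, an inhibitory phosphatase of blood cells (0.13). Slfn3 was nearest to 1700024G13Rik (0.20). Among the members themselves Slfn8 and Slfn9 were closest (0.26), followed by Slfn2 and Slfn9 (0.28), and Slfn3 and Slfn4 were farthest apart (2.08). The values of Slfn1, Slfn4, Plac8 and Gpr65, and that of Slfn3 in sham mouse 3, rest on few sham reads, so their log2 CPM there and the distances made from it depend on the prior count of 2.

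Genes of the pathways in which Schlafen proteins act were listed by role. Of 12 genes of the interferon signal, 10 were tested and 6 were up-regulated, with a median log2 fold change of 1.27, beside the same 8.47% of all tested genes. Irf7, the factor that amplifies the interferon response, went from 2.49 ± 0.343 to 49.5 ± 28.7 CPM (SD, n = 3 each), and Usp18, a feedback inhibitor of the receptor, from 0.963 ± 0.216 to 12.04 ± 5.34 CPM. The ligand genes Ifnb1 and Ifng had 3 reads or fewer in every library and were not tested.

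Of 16 genes that cut or protect RNA or control translation, 6 were up-regulated, with a median of 0.57, beside 8.47% and a median of 0.02 over all tested genes. Among these was Ang, the ribonuclease that cuts transfer RNA under stress, with a log2 fold change of 3.06 (SE 0.30, edgeR adjusted P = 1.56e-04). Eif2ak2, the kinase that halts translation when double-stranded RNA is present, had a log2 fold change of 2.40 (SE 0.26, edgeR adjusted P = 2.31e-04), and Samd9l, an interferon-induced gene that curbs translation, had 1.91 (SE 0.21, adjusted P = 2.29e-04). Rnh1, the inhibitor of angiogenin, had a log2 fold change of 0.55 (edgeR adjusted P = 0.00614), under the fold threshold for a DEG. Of 11 genes of lymphocyte quiescence and growth, 1 was up-regulated, the proliferation marker Mki67, with a log2 fold change of 1.69 (SE 0.39, edgeR adjusted P = 0.0122), and the median of the list was 0.47. This count is near the share of up-regulated DEGs over all tested genes (8.47%).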

How the data were processed

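Reads were trimmed and aligned to mm10 with HISAT2 by the authors, who deposited raw counts per gene from featureCounts, without normalization. Per the file headers this was version 2.0.3 with GENCODE M20, each mate counted as a read of its own and strand was ignored, whereas the processing notes name version 1.6.3. The columns of the BCAS tables carry other numbers than the labels, and mice are numbered here by the labels. Totals were 29652456 to 35607098 counts per library. Limits of detection (3 counts) cover counting error only. A fragment can add a count for each of its mates, so low counts may rest on fewer fragments than reads. Groups came from the sample labels. After filterByExpr and TMM normalization, groups were compared in edgeR 4.0.16 (quasi-likelihood test, Benjamini-Hochberg adjustment over 18617 genes, R 4.3.3). With 3 mice against 3, an exact two-sided permutation test of a single gene cannot go below P = 0.1. The fits by edgeR, DESeq2, limma-voom, glmTreat and a replicate block were tested on simulated counts with the same spread for every gene. The other steps were not tested in this way. The named genes are the members, other Schlafen genes, tested genes within 500000 bases of the cluster, the nearest profiles, and genes of the lists whose role is described. The members and lists were chosen with earlier results of these data known. RPKM used the exon length in the files. Coding sequences and transcripts came from GENCODE M21. Alternatives were DESeq2 1.42.0, limma-voom (limma 3.58.1), RLE, library totals, other filters and thresholds, glmTreat, halved counts, a replicate block and leaving out each mouse.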

Additional observations from a re-analysis of the deposited data

How the results depend on the processing

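In all 16 alternatives the same 6 members were up-regulated and none was down-regulated, although the count of up-regulated DEGs over all genes ran from 804 with glmTreat to 3356 without the fold change threshold, against 1576. Down-regulated DEGs ran from 14 to 2463 under the same alternatives, against 186, and were 96 without BCAS mouse 3 and 117 without sham mouse 3. The highest adjusted P over the alternatives was 0.0146 for Slfn1, 0.00728 for Slfn4 and 0.00250 or less for the other up-regulated members, and Slfn3 was not called in any (lowest adjusted P 0.216, log2 fold change 0.26 to 1.17). The log2 fold changes ran from 3.78 to 4.87 in Slfn1 and from 5.06 to 6.12 in Slfn4, with 11 and 10 sham reads in all, and from 2.17 to 2.69 in Slfn5. Replicate numbers were not used as pairs in the main fit. Deviations of same-numbered mice correlated at 0.036, -0.314 and -0.158. With 3 mice per group, and BCAS columns numbered otherwise than the labels, these values cannot exclude a pairing. With the replicate block, 6 members were up-regulated, among 1437 up-regulated and 158 down-regulated DEGs. The interferon core was found in the same number of members, 3, in the 250 bases before the start alone.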
